A study of Mus musculus with 78 samples.

Results

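The 10 genes described here encode enzymes that make serine and glycine and that carry 1-carbon units on folate: Phgdh, Psat1, Psph, Shmt1, Shmt2, Mthfd1, Mthfd2, Mthfd1l, Tdh and Gcat. They were taken as a list of names from the 3 gene count tables of the study, 10 of the 55401 genes in each table, and all 10 passed the filter on low counts in every table. All libraries came from E14TG2a mouse embryonic stem cells of genotype ZFP143-FKBP, in which both copies of the transcription factor ZFP143 carry a degradation tag, so the DMSO controls carry the tag too. The cells are clones of an edited line kept in 2i medium, which holds pluripotent cells in a naive state. Transient transcriptome sequencing (TT-seq) captured RNA made during 10 min of labelling with 2 mM 4-thiouridine, in DMSO and at 2, 6 and 24 h with 500 nM dTAG-V1, the compound that sends the tagged protein to degradation. RNA-seq of mRNA covered DMSO and depletion for 24, 48 and 72 h. The DMSO groups of TT-seq and of this time course carry no time, so depletion and time in culture cannot be told apart. A further RNA-seq experiment had a step of 24 h in DMSO or dTAG-V1, and in the RA groups a second step of 24 h with all-trans retinoic acid (RA) in which DMSO or dTAG-V1 was kept on, after 48 h of depletion in all. The 2i medium was exchanged for N2B27 when RA was added, and the RA groups spent a further 24 h in culture. RA, the new medium and the longer culture therefore cannot be told apart. Each of the 12 groups had 2 libraries, 24 of the 78 samples of the series. The methods call the libraries of a group biological replicates without saying what was repeated, and p-values measure the spread between these libraries.

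Serine is built from a glycolytic intermediate in a pathway of 3 enzymes. PHGDH oxidizes 3-phosphoglycerate, PSAT1 adds the amino group and PSPH removes the phosphate. Serine hydroxymethyltransferase then splits serine into glycine and a 1-carbon unit bound to tetrahydrofolate, with SHMT1 in the cytosol and SHMT2 in mitochondria. MTHFD1 interconverts folate forms in the cytosol, while MTHFD2 and MTHFD1L carry the same chemistry in mitochondria, ending in formate. The units serve purine and thymidylate synthesis and methylation. Mouse embryonic stem cells are known for a separate route, in which threonine dehydrogenase (TDH) and the ligase GCAT turn threonine into glycine and acetyl-CoA, and Tdh is known for high expression in these cells. Several genes of serine synthesis and mitochondrial folate metabolism are known targets of ATF4, the transcription factor of the amino acid response.

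Counts were scaled to CPM, counts relative to the library total, with TMM factors, and every fold change below is on the log2 scale unless a fold is stated. In TT-seq and for the difference between RA changes a gene was called at an adjusted p under 0.05 with a log2 change past 0.5. In the other comparisons it was called at an adjusted p under 0.01 in a test against a 1.5-fold change. Library totals ran from 9721568 to 16532077 counts in TT-seq, from 10261851 to 15316700 in RNA-seq and from 13890761 to 27089033 in the RA experiment. Zfp143 mRNA, which a protein degrader does not target, was 2.13-fold to 2.60-fold higher in dTAG than in DMSO in the 5 RNA-seq comparisons and 2.23-fold to 2.28-fold higher in TT-seq, so it does not check the loss of the protein. The 8 pluripotency markers summed to between 5851 and 6161 CPM in the DMSO libraries of the RNA-seq time course, and the 6 fibroblast markers to between 2.23 and 2.55 CPM, with 4 of them at 0.

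Only Shmt2 of the 10 genes had a ZFP143 peak at a transcript start, defined as a peak overlapping 2000 bp before to 1000 bp after a start with its centre within 2000 bp. Among the 21897 protein-coding genes in the tables, 10.1% had such a peak. The Shmt2 peak lay at chr10:127522249-127522693 (mm10), with a 39.2-fold enrichment over input, above the median of 20.8 over the 3189 peaks of the list. Its summit was 32 bp from ACTACAA, the start of the known binding site of ZFP143 and of its human counterpart ZNF143. The stretch of 150 bases before the Shmt2 start is shown because it is the only one in the list that carries both the peak and these letters, at chr10:127522445-127522594 on the minus strand (RefSeq, GRCm38.p6), with ACTACAA in capitals 56 bp before the start.

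Shmt2: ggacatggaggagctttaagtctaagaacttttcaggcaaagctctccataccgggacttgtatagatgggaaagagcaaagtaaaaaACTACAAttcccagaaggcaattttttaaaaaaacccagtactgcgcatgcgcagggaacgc

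In the RefSeq promoter windows, which run from 250 bases before to 50 after a start, ACTACAA on either strand was found in 1 of 10 windows of the list and in 3.24% of all 32851 windows. The windows covered 9 of the 10 genes, and Psat1 had 2 of them. CCCANNATG, another part of the ZFP143 site, was in none of the 10 windows and in 5.01% of all windows, and TGATGNAA, the core of the element that ATF4 binds with C/EBP proteins, was in none and in 3.97%. A match describes letters only. Mthfd1l had a second kind of position, a ZFP143 peak inside the gene at chr10:4105751-4106196, 73471 bp from its nearest annotated start and with a 7.73-fold enrichment. For the other 8 genes the nearest ZFP143 peak was between 4995 bp (Gcat) and 1311223 bp (Psat1) from a start. A CTCF peak overlapped the start at the 5′ end of Mthfd1l, at chr10:3972983-3973298. Those of Mthfd2, at chr6:83317134-83317446, and Mthfd1, at chr12:76293300-76293540, overlapped no start and lay near starts of internal transcripts, the nearest of them 8302 bp and 37767 bp into the gene.

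Each gene lies on a chromosome of its own except Shmt2, at chr10:127517123-127522444, and Mthfd1l, at chr10:3973118-4167081. Serine synthesis genes were at chr3:98313170-98339990 (Phgdh), chr19:15904678-15947337 (Psat1) and chr5:129765558-129787449 (Psph). Shmt1 was at chr11:60788104-60811718, Mthfd1 at chr12:76255298-76319803 and Mthfd2 at chr6:83305691-83325908. Tdh was at chr14:63492347-63509092 and Gcat at chr15:79030874-79038353. In the annotation used here, Gcat shares 1132 of its 2384 exon bases with a second gene model of the same name and strand. RNA-seq reads in the shared exons could be assigned to neither, so the Gcat level is a lower limit. Psph shares 452 exon bases with Cct6a, Shmt1 184 with Smcr8, Tdh 66 with Gm17232, Mthfd1 37 with Gm47525 and Shmt2 32 with Ndufa4l2, each on the other strand, and the strand setting of the RNA-seq counts is not given in the sources used here.

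In newly made RNA, in the fit without a replicate block, none of the 10 genes was called at 2, 6 or 24 h of depletion. The calls over the 17870 genes tested were 2.43% lower and 0.168% higher at 2 h, rising to 2.83% and 0.397% at 6 h, then to 4.09% and 2.02% at 24 h. With the replicate number as a block they were 3.70% and 0.487%, 5.35% and 2.01%, and 6.79% and 5.65%, and of the 10 genes Phgdh was called at 24 h. At an unadjusted p under 0.05, Phgdh and Mthfd1l stood at 2 h and Phgdh alone at 6 h and at 24 h. DESeq2 called 0 of the 10 genes at 2 and 6 h and 1 at 24 h. Shares of all genes under the unadjusted threshold and by DESeq2 are not given here, so these counts cannot be set against them. The median change of the 10 genes was 0.11, 0.09 and 0.07 at the 3 times, beside 0.01 over all genes tested at each time. The plot of TT-seq values shows how far the DMSO libraries lay apart for several of the genes.

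**Figure D1:**
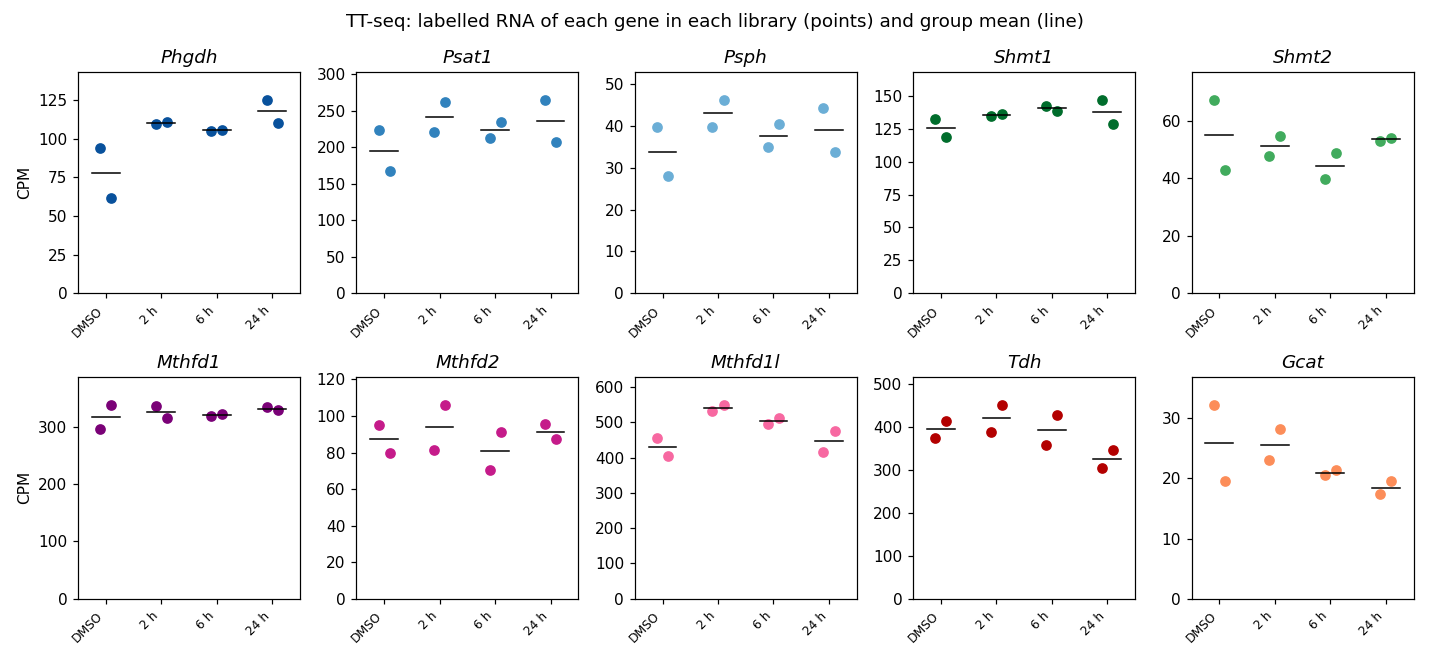
TT-seq level of each of the 10 genes in CPM (vertical axis, from 0, own scale per gene) in DMSO and at 2, 6 and 24 h of depletion (horizontal axis), with 1 point per library and a line at the mean of the 2 libraries. The 2 DMSO points of Phgdh, at 94.2 and 61.9 CPM, lie below all 6 dTAG points, while the Shmt2 points of DMSO and dTAG overlap.

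Phgdh had the largest change of the 10 genes in TT-seq at all 3 times. Its level was 94.2 and 61.9 CPM in the DMSO libraries, 109 and 110.5 CPM at 2 h, 105 and 106 CPM at 6 h, 125 and 110.4 CPM at 24 h. All 6 dTAG libraries were above both DMSO libraries. The change was 0.50 ± 0.18 (SE) at 2 h, 0.44 ± 0.18 at 6 h and 0.60 ± 0.18 at 24 h, with adjusted p-values of 0.337, 0.269 and 0.102 in the quasi-likelihood test of edgeR. The 2 DMSO libraries differed more from each other than any pair of dTAG libraries of 1 time did. Without DMSO replicate 1 Phgdh was called higher at all 3 times, with changes of 0.83, 0.75 and 0.92, and without DMSO replicate 2 it was not called at any, with changes of 0.24, 0.17 and 0.34. With all libraries, at 24 h it was also called higher by DESeq2, at 0.60, without the count filter, at 0.58, and with the replicate number as a block, at 0.61 (quasi-likelihood adjusted p = 0.0268), a fit that called 6.79% of all genes lower and 5.65% higher.

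Psat1 and Psph, the next steps of serine synthesis, had TT-seq changes of 0.19 to 0.31 and of 0.16 to 0.35 over the 3 times, with dTAG and DMSO libraries overlapping. Shmt1 had changes between 0.11 and 0.16. Shmt2, with the ZFP143 peak at its start, had 67.4 and 43.0 CPM in DMSO, 47.7 and 54.9 CPM at 2 h, 39.9 and 48.8 CPM at 6 h and 53.1 and 54.2 CPM at 24 h. Its libraries overlapped between DMSO and every time. The change was -0.10 ± 0.21 at 2 h, -0.31 ± 0.21 at 6 h and -0.04 ± 0.21 at 24 h, with adjusted p-values of 0.898, 0.489 and 0.944. The 95% interval at 6 h ran from -0.79 to 0.16.

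None of the folate genes Mthfd1, Mthfd2 and Mthfd1l was called in TT-seq. Mthfd1 had changes of 0.04, 0.01 and 0.06, with 95% intervals that stayed between -0.25 and 0.33. Mthfd2 had changes of 0.11, -0.11 and 0.07. Mthfd1l, the longest of the genes, was at 456 and 403 CPM in DMSO, at 532 and 550 CPM at 2 h, at 496 and 513 CPM at 6 h and at 415 and 477 CPM at 24 h. Both libraries at 2 h and at 6 h were above both DMSO libraries, and those at 24 h overlapped them. The changes of 0.33 ± 0.12, 0.23 ± 0.12 and 0.05 ± 0.12 had adjusted p-values of 0.343, 0.377 and 0.851.

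For the threonine route, Tdh was at 374 and 414 CPM in DMSO and at 303 and 345 CPM after 24 h, when both dTAG libraries were below both controls. The change was 0.09 ± 0.14 at 2 h, -0.01 ± 0.14 at 6 h and -0.28 ± 0.14 at 24 h, with an adjusted p of 0.294 at 24 h. Gcat had changes of -0.01, -0.30 and -0.48 ± 0.24, the last with an adjusted p of 0.291. TT-seq reads in exons shared by both Gcat models were counted to each. Per kilobase of gene, Tdh had the highest TT-seq level of the 10 genes in DMSO, 23.5 ± 1.66 CPM per kb (SD, n = 2), followed by Shmt2 at 10.4 ± 3.25 and then by 8 genes between 1.55 and 5.32 whose neighbours in the order mostly differed by less than their spread.

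In mRNA 5 of the 10 genes fell by 72 h of depletion. Tdh was the only gene called at 24 h and again at 48 h, and at 72 h Psat1, Shmt1, Mthfd1, Tdh and Gcat were lower. No gene of the list was called higher at any time. Of the 13925 genes tested, 3.41% were lower by the rule and 2.32% higher at 24 h, beside 7.71% and 10.5% at 48 h. At 72 h the shares were 12.0% and 13.7%, against 5 of the 10 genes lower. Scaling by library totals without TMM moved the lower part of all calls from 59.5% to 43.8% at 24 h, from 42.4% to 25.4% at 48 h, from 46.7% to 28.8% at 72 h. The median change of the list was -0.10, -0.47 and -0.66, beside 0.02, 0.01 and 0.02 over all genes. All 3 comparisons used the same 2 DMSO libraries, which have no stated time, so depletion and time in culture cannot be told apart. Under a rule with an adjusted p under 0.05 and a log2 change past 0.5, Phgdh was called higher and Tdh lower at 24 h, where 8.52% of all genes were called lower and 11.4% higher. By that rule 5 genes were lower at 48 h and 6 at 72 h, and none higher, where 16.9% of all genes were lower and 21.1% higher at 48 h, and 22.0% lower and 24.4% higher at 72 h.

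**Figure D2:**
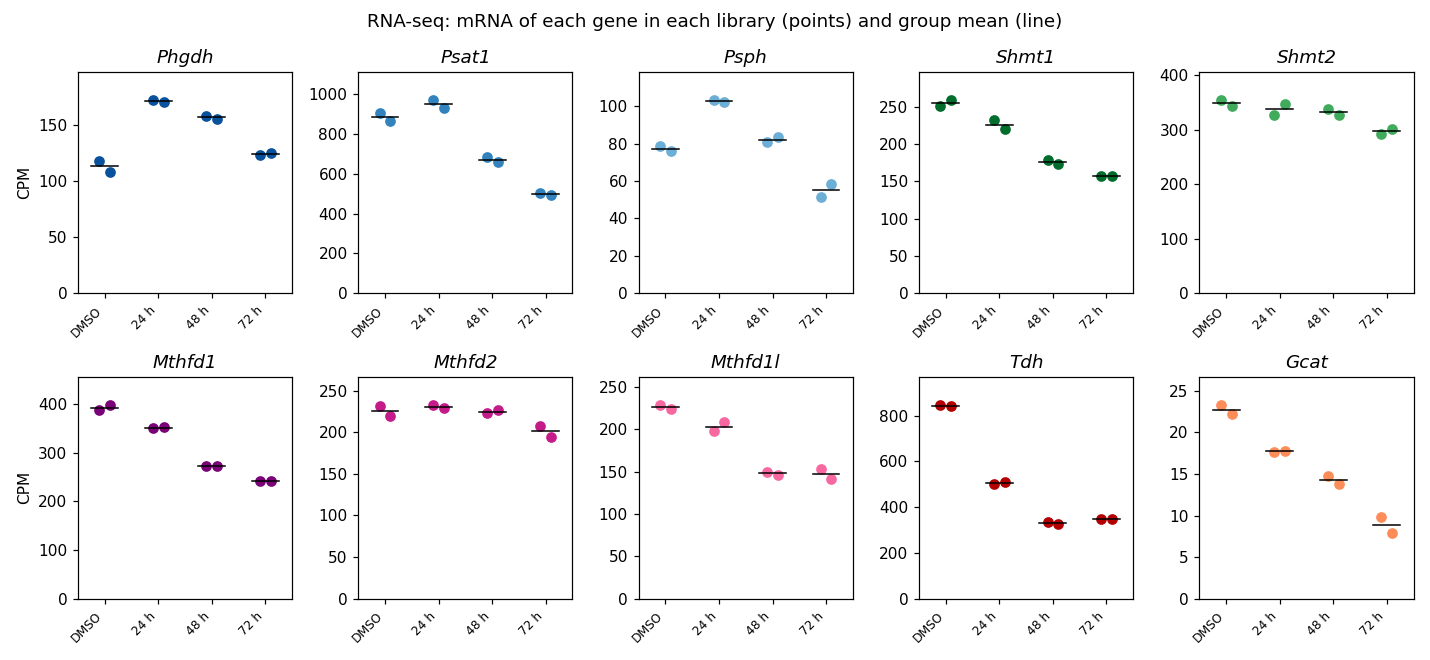
RNA-seq level of each of the 10 genes in CPM (vertical axis, from 0, own scale per gene) in DMSO and at 24, 48 and 72 h of depletion (horizontal axis), with 1 point per library and a line at the mean of the 2 libraries. Tdh steps down from 848 and 841 CPM to 500.0 and 510.4 CPM at 24 h, the Phgdh points at 24 h lie above DMSO and those at 72 h close to it, and Shmt2 and Mthfd2 stay close to DMSO.

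Tdh, the first enzyme of threonine breakdown to glycine, had the highest mRNA level per kilobase of exon in DMSO, 323 ± 1.78 CPM per kb (SD, n = 2). Its libraries stood at 848 and 841 CPM in DMSO, 500.0 and 510.4 CPM at 24 h, 335 and 327 CPM at 48 h and 347 and 350 CPM at 72 h. Every dTAG library was below both DMSO libraries, and the level at 72 h was no lower than at 48 h. Tdh was 1.67-fold lower at 24 h (log2 change -0.74 ± 0.04, adjusted p = 0.000827 in the edgeR test against a 1.5-fold change), 2.55-fold lower at 48 h (-1.35 ± 0.04, adjusted p = 1.17e-16) and 2.42-fold lower at 72 h (-1.28 ± 0.04, adjusted p = 5.58e-16). The change in TT-seq at 24 h was -0.28, and the difference between the assays was not tested. The call at 24 h was lost without 24 h dTAG replicate 1, with a change of -0.73, and when scaled by library totals without TMM, with a change of -0.61, while Phgdh at 0.74 was then called higher.

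Gcat, which completes the same route, was at 23.3 and 22.2 CPM in DMSO, 17.7 and 17.8 CPM at 24 h, 14.7 and 13.8 CPM at 48 h and 9.81 and 7.84 CPM at 72 h. These values rest on 106 to 311 counts per library. Each later time lay below the earlier one without overlap. The change was -0.36 ± 0.11 at 24 h and -0.67 ± 0.11 at 48 h, neither called (adjusted p = 1 and 0.300), and at 72 h Gcat was 2.61-fold lower (-1.38 ± 0.12, adjusted p = 2.71e-07). Bulk RNA cannot tell fewer cells with a transcript from less transcript per cell, for these genes as for the rest.

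Of the 3 serine synthesis genes, Psat1 alone was called against DMSO, at 72 h. Phgdh was at 118 and 108 CPM in DMSO, 173 and 171 CPM at 24 h, 158 and 156 CPM at 48 h and 123 and 125 CPM at 72 h. All dTAG libraries were above both DMSO libraries, furthest at 24 h. The change of 0.61 ± 0.05 at 24 h had a 95% interval from 0.50 to 0.71, which holds the log2 of 1.5, and was not called (adjusted p = 0.864). At 48 h it was 0.48 ± 0.05 and at 72 h 0.14 ± 0.05. Psph was at 78.6 and 75.9 CPM in DMSO, 104 and 102 CPM at 24 h, 80.7 and 83.6 CPM at 48 h and 51.5 and 58.5 CPM at 72 h, above the controls at 24 h and below them at 72 h. Its changes of 0.41 ± 0.06, 0.09 ± 0.06 and -0.48 ± 0.06 were not called.

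Psat1 had the second highest level per kilobase in DMSO, 208 ± 6.45 CPM per kb. It stood at 906 and 867 CPM in DMSO, 973 and 933 CPM at 24 h, 683 and 657 CPM at 48 h and 504 and 496 CPM at 72 h. The libraries at 24 h were above both controls and those at 48 and 72 h below them. The change was 0.11 ± 0.04 at 24 h and -0.40 ± 0.04 at 48 h, both not called, and Psat1 was 1.77-fold lower at 72 h (-0.83 ± 0.04, adjusted p = 1.10e-06). Compared directly, 72 h against 24 h of dTAG, Psat1 fell by 0.93 ± 0.04 (adjusted p = 6.07e-09), Psph by 0.89 ± 0.06 (adjusted p = 3.22e-05) and Gcat by 1.03 ± 0.13 (adjusted p = 0.00155). These 3 of 10 genes were called lower and none higher, against 6.60% and 7.53% of all genes (lower part of calls 46.7%, or 36.3% by library totals alone), and the other 7 had changes between -0.54 and -0.18. The Gcat call in this comparison was lost without 72 h dTAG replicate 2, at -0.85, and with DESeq2, at -1.02. By the rule with an adjusted p under 0.05 and a log2 change past 0.5, Shmt1, Mthfd1 and Tdh were lower too, 6 of 10 genes, where 16.7% of all genes were lower and 18.7% higher.

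Among the enzymes that split serine, Shmt1 and Shmt2 differed in what passed the test. Shmt1 was at 250.2 and 259 CPM in DMSO, 231 and 219.7 CPM at 24 h, 178 and 173 CPM at 48 h and 157 and 156 CPM at 72 h. Each dTAG time lay below DMSO without overlap. The change was -0.18 ± 0.04, -0.54 ± 0.05 and -0.70 ± 0.05, and only the last was called (1.63-fold lower, adjusted p = 0.00654). Shmt2 was at 356 and 343 CPM in DMSO, 327 and 348 CPM at 24 h, 339 and 328 CPM at 48 h and 293 and 301 CPM at 72 h. Its changes of -0.05 ± 0.04, -0.07 ± 0.04 and -0.23 ± 0.04 were not called, and those at 24 and 48 h turned positive, to 0.08 and 0.13, when scaled by library totals alone. The 95% interval at 72 h ran from -0.32 to -0.14. The difference between Shmt1 and Shmt2 was not tested.

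Of the folate genes, the cytosolic Mthfd1 was at 387 and 398 CPM in DMSO, 349.8 and 352 CPM at 24 h, 272 and 273 CPM at 48 h and 242 and 242 CPM at 72 h. No dTAG library overlapped the controls. It was called lower at 72 h (1.62-fold, -0.70 ± 0.04, adjusted p = 0.00445) after changes of -0.16 and -0.53 that were not called. The calls of Shmt1 and Mthfd1 at 72 h were lost without DMSO replicate 2 (both -0.68), without either 72 h dTAG library (-0.71 and -0.70) and with DESeq2 (-0.72 and -0.71). Library totals alone as the scaling ended both calls (-0.48 and -0.48) and that of Psat1 (-0.61). The mitochondrial Mthfd1l was at 229 and 223 CPM in DMSO, 197 and 209 CPM at 24 h, 149.9 and 146 CPM at 48 h and 153 and 141 CPM at 72 h, below the controls at each time. Its changes of -0.16 ± 0.05, -0.61 ± 0.05 and -0.62 ± 0.05 were not called (adjusted p = 1, 0.389 and 0.218). Mthfd2, its mitochondrial partner, had 232 and 219 CPM in DMSO and 208 and 195 CPM at 72 h, with changes of 0.04 ± 0.05 at 24 h and -0.17 ± 0.05 at 72 h, the latter 0.05 when scaled by library totals alone.

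**Figure D3:**
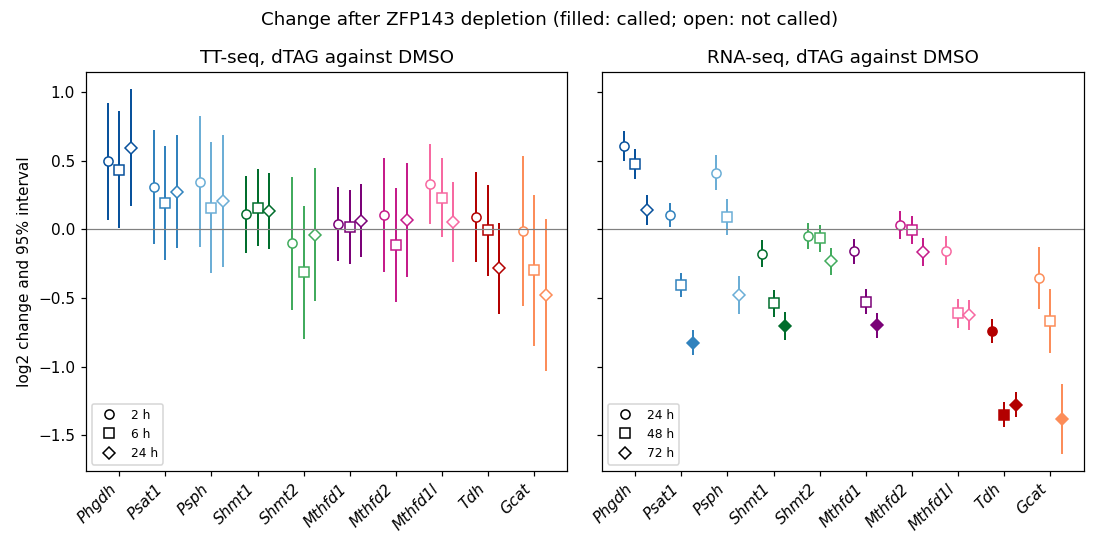
Log2 change in dTAG against DMSO (vertical axis) with its 95% interval for each of the 10 genes (horizontal axis), in TT-seq at 2, 6 and 24 h (left) and in RNA-seq at 24, 48 and 72 h (right), with filled symbols for called changes. All TT-seq symbols, from the fit without a replicate block, are open. With the replicate number as a block, Phgdh was called higher in TT-seq at 24 h. The 7 filled RNA-seq symbols are Tdh at the 3 times and Psat1, Shmt1, Mthfd1 and Gcat at 72 h.

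The order of mRNA levels per kilobase of exon shifted with these changes. In DMSO it ran from Tdh, Psat1 and Shmt2 (112 ± 2.86 CPM per kb) through Mthfd1 (88.3), Shmt1 (65.6), Mthfd2 (64.7), Mthfd1l (50.99) and Phgdh (45.5) to Psph (17.8) and Gcat (9.54). Shmt1 and Mthfd2 differed by less than their spread in DMSO, and the level of Gcat is a lower limit, so its place below Psph is uncertain. At 24 h Psat1 (224 ± 6.70) was above Tdh (193 ± 2.82), as it was at 48 h (157 ± 4.24 and 127 ± 2.33). At 72 h the order again opened with Tdh (133 ± 0.76), followed by Psat1 (117 ± 1.29) and Shmt2 (95.6 ± 1.77).

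Around the 10 genes, 66 further genes of 1-carbon and amino acid metabolism were read in the same fits. The counts below stand beside the shares of all genes given above, 3.41%, 7.71% and 12.0% lower and 2.32%, 10.5% and 13.7% higher at 24, 48 and 72 h of RNA-seq. A ZFP143 peak lay at a start of 1 of 4 glycine cleavage genes (Amt), 3 of 17 folate genes (Mtfmt, Ggh, Slc19a1), 4 of 13 methionine cycle genes (Mtr, Ahcy, Ahcyl2, Cth), 3 of 6 purine synthesis genes (Ppat, Gart, Paics), 1 of 9 carriers (Slc38a1), 0 of 7 breakdown genes and 3 of 10 ATF4 response genes (Ddit3, Trib3, Sesn2), named here for the peak and not for a change, beside 10.1% of protein-coding genes. In the glycine cleavage system, 4 genes whose products break glycine down to a 1-carbon unit in mitochondria, 1 was called lower at 24 and at 48 h and 2 at 72 h, none higher. Amt, the aminomethyltransferase of the system, had RNA-seq changes of -1.48, -2.18 and -2.69 at the 3 times, all called, and was lower in TT-seq at 24 h (-1.22, adjusted p = 0.00657). Gcsh, the carrier protein of the system, joined at 72 h with -1.02.

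De novo purine synthesis, which consumes formyl groups on folate, had 0, 3 and 5 of 6 genes called lower over the time course and none higher, beside 12.0% of all genes lower at 72 h. Paics had changes of -0.95 and -1.24 at 48 and 72 h, and Adsl of -0.86 and -0.99. Among 15 tested folate enzymes and carriers outside the list, 0, 0 and 4 were lower and 1, 2 and 2 higher at the 3 times. Aldh1l2, which oxidizes formyl-folate in mitochondria, was higher by 1.33, 2.12 and 1.67, and Folr1, a folate receptor, was lower at 72 h (-2.89). In the methionine cycle and transsulfuration, 12 genes tested, 1, 3 and 4 were lower and 1, 2 and 0 higher. Ahcy, which clears S-adenosylhomocysteine, had changes of -0.85, -1.56 and -1.85 at the 3 times, all called, Cbs, the first enzyme of transsulfuration, was lower at 72 h (-1.55), and Cth, the cystathionine lyase, was higher at 24 h (0.99).

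The carriers of serine, glycine and neutral amino acids and the genes of the ATF4 response had called members in both directions. Of 8 carriers tested, 1, 3 and 4 were higher and 0, 0 and 1 lower. Slc1a4, a neutral amino acid carrier, was higher by 1.86, 2.34 and 2.37, and by 1.48 in TT-seq at 24 h (adjusted p = 0.00526). Of 10 genes of the ATF4 and amino acid response, 4, 5 and 5 were higher and 0, 0 and 1 lower at the 3 times. Ddit3, a stress-induced transcription factor, was higher by 2.32, 3.09 and 2.96, Atf5 by 2.44 at 48 h and 3.35 at 72 h, and Slc7a11, the cystine carrier, by 2.32 at 24 h. Pycr1, a proline synthesis enzyme, fell by 1.92 between 24 and 72 h and was the gene called lower at 72 h. Of 3 genes tested for serine, threonine and glyoxylate breakdown, Srr was higher and Grhpr lower at 48 and 72 h. In TT-seq no gene of these lists was called at 2 or 6 h, and at 24 h 3 were lower and 6 higher, beside 4.09% and 2.02% of all genes. With the replicate number as a block, the TT-seq calls in these lists were 3 higher and 0 lower at 2 h and at 6 h (Gldc, Cth and Slc7a11 at both, named after their values were seen), beside 0.487% and 2.01% of all genes higher. At 24 h the block gave 6 lower and 10 higher, including all 9 called without it, beside 6.79% and 5.65% of all genes.

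Markers of other states moved over the same time course, with sums by library totals alone and calls from the TMM fit. The 8 pluripotency markers summed to 5350 to 5418 CPM at 24 h, then to 4592 to 4660 CPM, and to 4455 to 4494 CPM at 72 h, and 3 of 8 were called lower at 48 and at 72 h. The 6 primitive endoderm markers summed to 5.60 to 6.86 CPM in DMSO and 19.4 to 19.5 CPM at 72 h, with 3 of 4 tested called higher. The 6 trophectoderm markers summed to 153 to 156 CPM in DMSO and 94.1 to 119 CPM over the dTAG libraries, and the 6 fibroblast markers to 2.23 to 2.55 CPM in DMSO, 2.80 to 2.91 CPM at 24 h, 5.16 to 5.76 CPM at 48 h and 2.96 to 4.09 CPM at 72 h, with 2 to 4 of them at 0. Col1a1, a fibroblast collagen and 1 of 2 of these markers tested, was called higher at 48 h (3.14) and at 72 h (2.50). Their part in the changes of the 10 genes was not tested.

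In the RA experiment the comparison after 24 h of dTAG, before RA, gave none of the 10 genes as called, where 3.66% of 15915 genes were lower and 2.74% higher (lower part of calls 57.2%, or 43.5% by library totals alone and 76.8% with DESeq2). By DESeq2 the count was 0. In the quasi-likelihood test against no change, 7 genes had an unadjusted p under 0.05. The share of all genes under that threshold is not given here, so the 7 genes cannot be set against it. Tdh was at 1209 and 1434 CPM in DMSO and 762 and 731 CPM in dTAG, without overlap, a change of -0.82 ± 0.09 with an adjusted p of 0.0219. It was called without DMSO before RA replicate 1, at -0.94, without the count filter, at -0.80, and, alone among the 10 genes, by the looser rule without the 1.5-fold test, where 8.43% of all genes were lower and 14.5% higher. These libraries are separate from the RNA-seq time course, where the change at 24 h was -0.74. Phgdh had changes of 0.36 ± 0.08 here and 0.61 there, Psph 0.37 ± 0.09 and 0.41, Psat1 0.18 ± 0.07 and 0.11, and Gcat -0.46 ± 0.12 and -0.36. Shmt2 had -0.29 ± 0.08 here and -0.05 there.

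**Figure D4:**
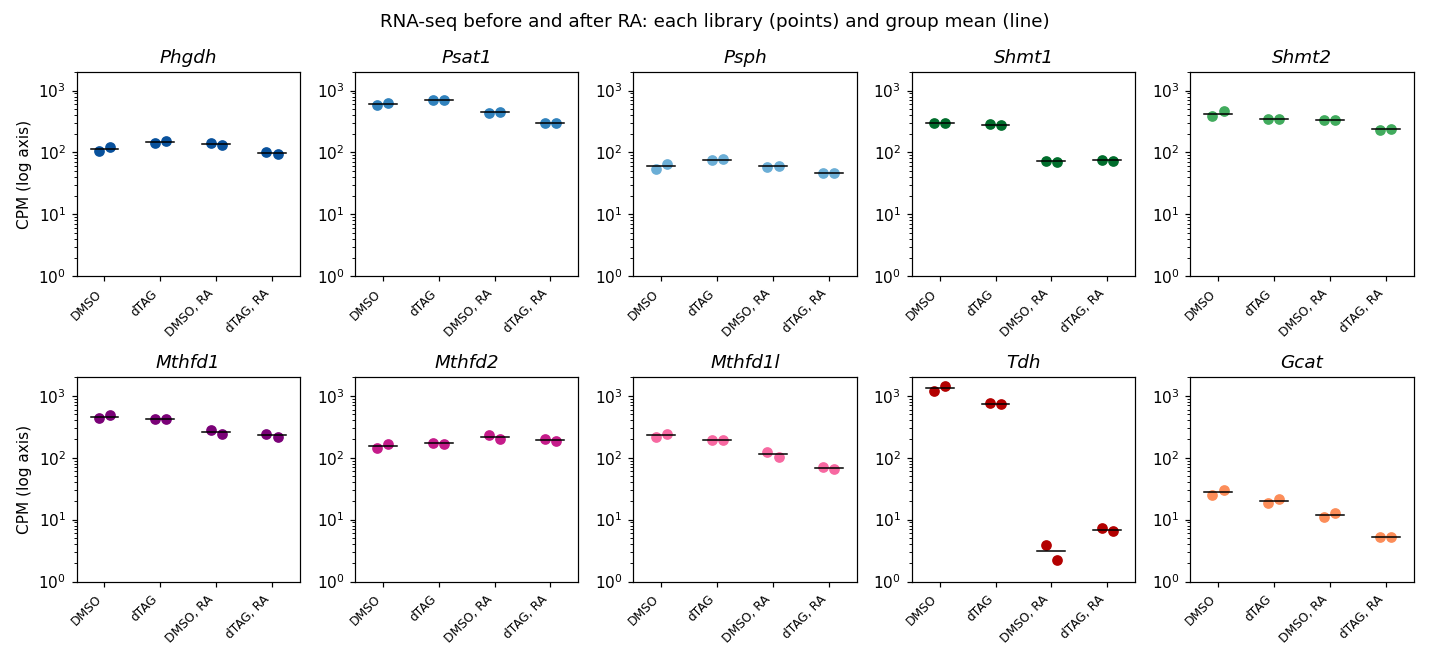
RNA-seq level of each of the 10 genes in CPM (vertical axis, log scale from 1 to 2000) in DMSO and dTAG before RA and in DMSO and dTAG after the RA step (horizontal axis), with 1 point per library and a line at the mean of the 2 libraries. Tdh drops from 1209 and 1434 CPM to 3.89 and 2.251 CPM in DMSO and from 762 and 731 CPM to 7.24 and 6.57 CPM in dTAG. Mthfd2 stays between 142 and 234 CPM.

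Over the RA step in DMSO cells 5 of the 10 genes fell, namely Shmt1, Mthfd1, Mthfd1l, Tdh and Gcat, and none rose, where 18.1% of all genes were called lower and 25.8% higher. Tdh fell the most, from 1209 and 1434 CPM to 3.89 and 2.251 CPM, which were 88 and 33 counts, a 409.8-fold fall (-8.68 ± 0.14, adjusted p = 1.33e-20). It went from the highest of the 10 levels per kilobase (505 ± 60.8 CPM per kb) to the lowest (1.17 ± 0.44). Shmt1 went from 294 and 302 CPM to 72.2 and 71.4 CPM, a 4.15-fold fall (-2.05 ± 0.07, adjusted p = 1.72e-14). Gcat (-1.23 ± 0.13) and Mthfd1l (-1.01 ± 0.08) were more than 2-fold lower, and Mthfd1 was lower by -0.82 ± 0.08, a call that was lost without DMSO before RA replicate 2, at -0.77, and without DMSO RA replicate 2, at -0.69. Scaled by library totals alone, Mthfd1 (-0.50) and Mthfd1l (-0.69) were not called and Mthfd2 was called higher (0.82), and over all genes the lower part of the calls went from 41.2% to 24.9%. Not called were Psat1 (-0.48), Shmt2 (-0.35), Psph (0.01), Phgdh (0.28) and Mthfd2 (0.50 ± 0.08, adjusted p = 0.866). After RA in DMSO, Shmt2 (106 ± 1.22 CPM per kb) and Psat1 (104 ± 0.65) had the highest levels.

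In dTAG cells 6 of the 10 genes fell over the RA step, Psat1, Shmt1, Mthfd1, Mthfd1l, Tdh and Gcat, and none rose, against 18.5% of all genes lower and 25.0% higher. Tdh went from 762 and 731 CPM to 7.24 and 6.57 CPM, a 108-fold fall (-6.76 ± 0.13, adjusted p = 9.02e-20). Psat1 went from 703 and 691 CPM to 296 and 299 CPM, a 2.34-fold fall (-1.23 ± 0.07, adjusted p = 2.82e-09). The changes of the others were -1.91 ± 0.07 for Shmt1, -1.93 ± 0.15 for Gcat, -1.49 ± 0.08 for Mthfd1l and -0.88 ± 0.08 for Mthfd1. The Mthfd1 call was lost without dTAG RA replicate 2, at -0.72, and by library totals alone, at -0.49, where the lower part of all calls went from 42.5% to 21.8%. Psph had -0.71 ± 0.09 (adjusted p = 0.0491, and called without the count filter at -0.79), Phgdh -0.57 ± 0.08, Shmt2 -0.56 ± 0.08 and Mthfd2 0.17 ± 0.08, none of them called against 1.5-fold. By the rule used for the difference between RA changes, an adjusted p under 0.05 with a log2 change past 0.5, 9 of the 10 genes were lower in dTAG, with Psph (adjusted p = 1.59e-07), Phgdh (2.19e-06) and Shmt2 (8.52e-07) added, where 29.7% of all genes were lower and 33.7% higher. By that rule the same 5 genes were lower in DMSO and Mthfd2 higher, where 28.3% of all genes were lower and 34.3% higher.

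The difference between the RA change in dTAG and that in DMSO passed the test for 5 of the 10 genes, 4 lower (Phgdh, Psat1, Psph, Gcat) and 1 higher (Tdh), where 18.0% of all genes were called lower and 13.7% higher (lower part of calls 56.7%, or 50.7% with RLE scaling, 48.6% by library totals alone and 49.9% with DESeq2). Over the same step depletion went from 24 h to 48 h in the dTAG cells, so in this difference the response to RA and a second day of depletion cannot be told apart. In the RNA-seq time course without RA, the changes against DMSO at 24 h and 48 h were 0.61 and 0.48 for Phgdh, 0.11 and -0.40 for Psat1, 0.41 and 0.09 for Psph, -0.36 and -0.67 for Gcat and -0.74 and -1.35 for Tdh. All 3 genes of serine synthesis were among the lower ones in the difference. Phgdh was at 104 and 123 CPM in DMSO and 144 and 131 CPM after RA in DMSO, but at 140.1 and 152 CPM in dTAG and 102 and 94.1 CPM after RA in dTAG. Its libraries after RA lay above those before it in DMSO and below them in dTAG, a difference of -0.85 ± 0.12 (quasi-likelihood adjusted p = 7.35e-06). Psat1 differed by -0.75 ± 0.10 (adjusted p = 2.47e-06). Psph was at 53.6 and 65.1 CPM in DMSO, 59.0 and 60.7 CPM after RA in DMSO, 75.7 and 77.1 CPM in dTAG and 46.6 and 46.9 CPM after RA in dTAG, a difference of -0.72 ± 0.12 (adjusted p = 7.28e-05). For all 3 genes dTAG libraries were above DMSO libraries before RA and below them after it.

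Tdh had a difference of 1.92 ± 0.21 (adjusted p = 3.30e-07), and its dTAG libraries were below DMSO before RA and above it after RA. Gcat differed by -0.70 ± 0.20 (adjusted p = 0.00718), a call that was lost without dTAG before RA replicate 2, at -0.59. The 2 genes of the threonine route had differences of opposite sign. Shmt1 (0.14 ± 0.10), Mthfd1 (-0.06 ± 0.11) and Shmt2 (-0.21 ± 0.11) had adjusted p-values from 0.123 to 0.712, with 95% intervals for Mthfd1 from -0.28 to 0.17 and for Shmt1 from -0.06 to 0.34. Mthfd2 (-0.33 ± 0.12, adjusted p = 0.0276) and Mthfd1l (-0.48 ± 0.12, adjusted p = 0.00214) did not reach the change of 0.5 that a call needs. Mthfd1l was called without DMSO before RA replicate 2 or DMSO RA replicate 2, at -0.57 and -0.56, and without the count filter, at -0.53.

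**Figure D5:**
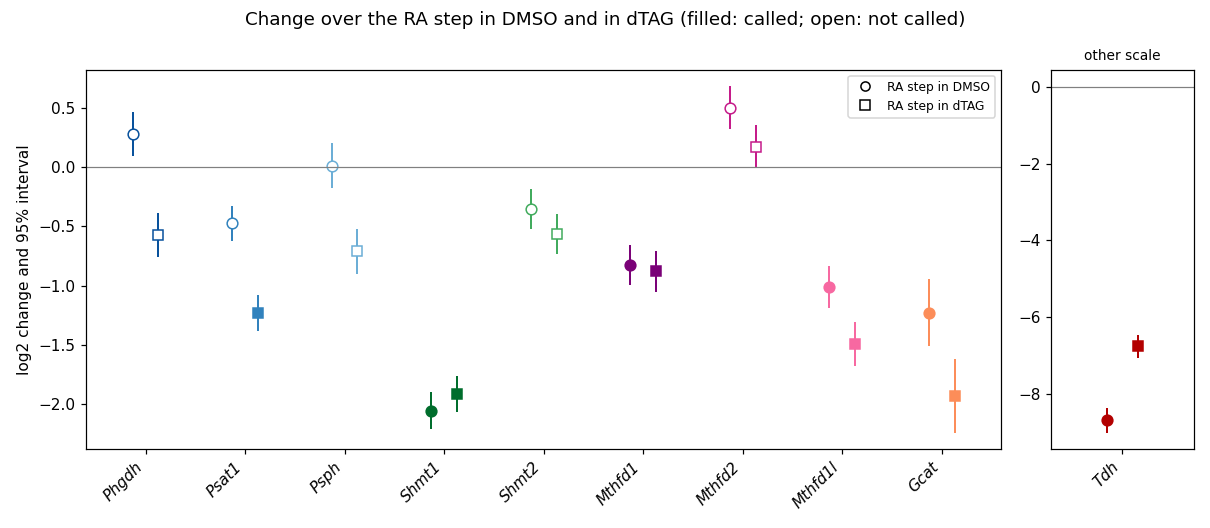
Log2 change over the RA step (vertical axis) with its 95% interval for 9 of the genes (left) and, on another scale, Tdh (right), in DMSO (circles) and in dTAG (squares), with filled symbols for called changes. The difference between circle and square was called for Phgdh, Psat1, Psph, Gcat and Tdh, and the pair lies nearly level for Shmt1 and Mthfd1.

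After RA, dTAG against DMSO gave 1 of the 10 genes as lower and none as higher, where 7.36% of all genes were lower and 9.10% higher (lower part of calls 44.7%, or 26.7% by library totals alone). Gcat was at 10.996 and 12.7 CPM in DMSO and 5.199 and 5.31 CPM in dTAG, 2.24-fold lower (-1.16 ± 0.16, adjusted p = 0.00112). The Gcat call was lost without DMSO RA replicate 2, at -1.05, without dTAG RA replicate 1, at -1.11, with DESeq2, at -1.14, and by library totals alone, at -0.95. Tdh, at 3.89 and 2.251 CPM in DMSO and 7.24 and 6.57 CPM in dTAG, had a change of 1.10 ± 0.19 with an adjusted p of 0.0104, just outside the threshold, and without DMSO RA replicate 1 it was called, at 1.63, as it was with RLE scaling (1.13), library totals alone (1.31) and no count filter (1.06). Mthfd1l (-0.73 ± 0.08, adjusted p = 0.0598), Psat1 (-0.57), Shmt2 (-0.50) and Phgdh (-0.49) were not called, with dTAG libraries below DMSO libraries for each of them. By the looser rule Psat1, Mthfd1l and Gcat were lower and Tdh higher, where 18.6% of all genes were lower and 20.9% higher.

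In the lists around the 10 genes, all 6 purine synthesis genes fell over the RA step in DMSO and in dTAG, beside 18.1% and 18.5% of all genes. The difference of the RA changes was called lower for 2 of these 6 and higher for none, for 2 and 1 of 4 glycine cleavage genes, for 6 and 0 of 15 other folate genes, for 0 and 4 of 12 methionine cycle genes, for 1 and 1 of 8 carriers and for 4 and 2 of 10 genes of the ATF4 response, beside 18.0% of all genes lower and 13.7% higher. Gldc, the decarboxylase of glycine cleavage, differed by -1.13, Bhmt2, a methyltransferase to homocysteine, by 2.33, and Cbs by 1.85. Slc1a4 differed by -1.34 and Pycr1 by -1.23.

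Markers of the differentiation itself moved over the RA step and differed between the arms, with sums by library totals alone. Before RA the RA response genes summed to 4.19 to 4.46 CPM in DMSO and 9.32 to 9.86 CPM in dTAG. Pluripotency markers summed to 6018 to 6040 and 5913 to 5933 CPM, and primitive endoderm markers to 4.01 to 4.93 and 8.16 to 10.5 CPM. Fibroblast markers summed to 2.63 to 3.54 and 3.60 to 3.80 CPM, and trophectoderm markers to 60.4 to 61.1 and 50.9 to 55.5 CPM. The 6 RA response genes summed to 716 to 874 CPM after RA in DMSO and 332 to 371 CPM after RA in dTAG, with 5 of 6 called lower in dTAG. The 8 pluripotency markers summed to 1441 to 2037 CPM and to 1774 to 2084 CPM, with 3 of 8 called higher and 1 lower in dTAG. Primitive endoderm markers summed to 42.1 to 44.4 CPM and to 68.5 to 69.2 CPM, fibroblast markers to 6.88 to 10.9 CPM and to 31.1 to 32.1 CPM, and trophectoderm markers to 25.7 to 32.8 CPM and to 44.3 to 49.0 CPM. Their part in the differences of Tdh, Gcat and the serine synthesis genes was not tested.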

How the data were processed

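TT-seq, RNA-seq and RNA-seq with RA were analysed from 3 tables of raw read counts per gene. Per the deposited files and the study's methods, the authors aligned reads with STAR to mm10 and counted them on GENCODE genes, for TT-seq with HTSeq over whole genes after removing duplicates and splitting by strand, so that a read in 2 genes counts for both, and for RNA-seq with the counting mode of STAR, which drops such reads. The ZFP143 peak list deposited by the authors holds for each peak its −log10 q-value and, as a ratio to input, its fold enrichment, both made with MACS2. The CTCF list gives positions, and for both factors the authors made 1 list, so that binding has no replicates here. Other data of the series were not used here.

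The analysis of counts ran in R 4.3.3 with edgeR 4.0.16, limma 3.58.1 and, as an alternative, DESeq2 1.42.0. A gene was tested if over 10 counts were present in 4 or more of the 8 libraries. Scaling was by TMM, with a single fit per table over all 4 groups. TT-seq contrasts and the RA difference used the quasi-likelihood test, the others glmTreat against 1.5-fold, with Benjamini-Hochberg adjustment over all genes tested. SE and 95% intervals come from the quasi-likelihood fit. Symbols came from GENCODE identifiers, which matched 55141 of 55401 genes, and Gcat was taken by identifier. Gene positions, lengths, overlaps and transcript starts came from an earlier GENCODE release than the one the study counted on. No 2 libraries held identical counts. Same-numbered libraries deviated together from their group means in all 6 pairs of groups of TT-seq (r over genes from 0.193 to 0.631) but not in RNA-seq (-0.0419 to 0.0621) or with RA (-0.0986 to 0.125). Replicate numbers were therefore taken to pair the TT-seq libraries, from the data and not from a label, and with 2 numbers this rests on little. The TT-seq values above come from the fit without that pairing unless the block is named. The fits were tested on simulated counts with 200 changed genes.

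The 10 genes and all lists were chosen with earlier results of these data known. Named were the 10 genes in every comparison, Zfp143, and from each other list at most the 2 called genes with the largest change per comparison. Level comparisons between genes are per kilobase of exon, or of gene in TT-seq. Scaling, the count filter, the tool, the replicate number, the call rule and each library were varied.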

Additional observations from a re-analysis of the deposited data

Results flagged for a closer look

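The change over the RA step differed between dTAG and DMSO cells, by the test of that difference, for 5 of the 10 genes. The RA change in dTAG minus that in DMSO was -0.85 for Phgdh, -0.75 for Psat1, -0.72 for Psph and -0.70 for Gcat, and 1.92 for Tdh, on the log2 scale. The dTAG cells also went from 24 h to 48 h of depletion over that step, and the longer depletion and the RA response cannot be told apart. Phgdh changed sign between the arms, with 0.28 in DMSO and -0.57 in dTAG, neither of which was called against 1.5-fold. By the rule used for the difference itself, the change in dTAG was called lower (quasi-likelihood adjusted p = 2.19e-06) and that in DMSO was not called. Groups of 2 libraries are too small for the search for single samples that stand apart.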

How the results depend on the processing

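The counts of called genes in the list kept to within 1.5 times under most alternatives. In TT-seq the count at 24 h went from 0 to 1 without the count filter, with DESeq2 and with a replicate block, Phgdh each time, and leaving out libraries gave 0 to 1 at 2 h, at 6 h and at 24 h. In RNA-seq the looser call rule gave 2 at 24 h, 5 at 48 h and 6 for 72 h against 24 h. At 72 h library size alone gave 2, and DESeq2 gave 3. Leaving out libraries gave 0 to 1 at 24 h and 3 to 5 at 72 h. Before RA the count went from 0 to 1 without the count filter and under the looser rule, Tdh in both, and leaving out libraries gave 0 to 1. After RA it went from 1 to 2 with RLE scaling and without the count filter, to 4 under the looser rule and to 0 with DESeq2, and leaving out libraries gave 0 to 2. The cause was not tested. The count of 1 start with a ZFP143 peak was the same within 500 bp and among peaks at or above the median enrichment. With library size alone the median change of all genes rose to 0.15, 0.21 and 0.23 at 24, 48 and 72 h of RNA-seq and to 0.35 and 0.39 over the RA step.

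No called gene of the list changed direction under any alternative. Of single changes, 47 values of genes not called either way took the other sign. In TT-seq, where the replicate numbers were taken to pair the libraries, the block with the replicate number raised the TT-seq calls over all genes at 24 h from 730 to 1214 lower and from 361 to 1009 higher. Beyond Phgdh it changed no other call among the 10 genes, in TT-seq or in the RNA-seq tables, where the numbers were not taken to pair. Over all genes the TT-seq calls at 2 h, 435 lower and 30 higher, were 102 and 11 without 2 h dTAG replicate 1 and 774 and 162 without the count filter, and the RNA-seq calls at 24 h, 475 and 323, were 335 and 102 with DESeq2. A group left with a single library was assumed to vary like the others. With 2 libraries a group, changes near 1.5-fold pass or miss the test by small margins.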
